A study of Homo sapiens with 33 samples.

Results

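The transcripts that stood apart in the middle of S phase were sought in HepG2 cells, an established human liver cancer line that keeps many hepatocyte functions. Cells had been sorted along the cell cycle into 6 fractions labelled G1, S1, S2, S3, S4 and G2, and RNA and DNA were profiled from the same sorting scheme. Mid S is used here for the fractions S2 and S3 (4 RNA libraries: replicates 2 and 3 of each), which were set against the gap fractions G1 and G2 (4 RNA libraries: replicates 2 and 3 of each). These 8 libraries are members of a series of 33 samples, in which 18 are replication timing (Repli-seq) samples of DNA and 3 are RNA libraries of unsorted cells. The 4 libraries of S1 and S4, the S fractions on either side, served as a second set to compare mid S with. All groups are the same line, with no treatment or genetic change named in the labels. The molecule is labelled nuclear RNA, although the library kit named in the protocol is for total RNA at very low input. The labels give a replicate number but do not say whether replicates 2 and 3 are separate cultures, so the p-values describe how far these libraries vary, possibly for technical reasons alone.

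Replication starts from origins that were licensed in G1, when the MCM helicase is loaded on chromatin, and forks fired at those origins copy the genome. Meanwhile new histones are delivered to the daughter strands. Many genes for licensing and nucleotide supply are driven by E2F factors around the start of S phase. The replication-dependent histone mRNAs accumulate with DNA synthesis and lack a poly(A) tail. The genes of mitosis are switched on late, through FOXM1 and the MYB-MuvB complex. A transcript that peaks or dips in mid S alone would fall outside a simple rise or decline from G1 to G2. Setting S2 and S3 against G1 and G2 together asks for such transcripts.

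Levels are given in TPM, which counts transcripts per length out of a fixed total, here 1000000 over the protein-coding genes of each library. Differences are on the log2(TPM + 1) scale, mid S minus gap fractions, with their standard error (SE). Of 10687 protein-coding genes with a mean of at least 5 TPM, 25 passed an adjusted p of 0.05 in limma with a term for the replicate number (0.234%). Of these, 9 rose in mid S (0.0842%) and 16 fell (0.15%). At an unadjusted p below 0.05 there were 462 genes higher (4.32%) and 1261 lower (11.8%). The median over all genes tested was -0.09. The count of 25 rested on the replicate term, since without it limma called 0 genes (342 at an unadjusted p below 0.05). It was also 0 without the trend of the variance on level (1661 at an unadjusted p below 0.05). It was 264 when each of the 4 fractions had a mean of its own, with 144 higher (1.35%) and 120 lower (1.12%). With voom on read counts recovered from the TPM values it was 218, with 113 higher (1.06%) and 105 lower (0.983%), and it was 43 with array weights. Each of these fits still called all 25. Without 1 library the count was 0 (G1 replicate 3), 1 (G2 replicate 2), 3 (S3 replicate 3), 4 (S2 replicate 3), 5 (G1 replicate 2), 8 (S2 replicate 2), 10 (S3 replicate 2) or 67 (G2 replicate 3). The balance of 9 higher and 16 lower moved with the scaling, to 13 and 11 with median-ratio scaling, 14 and 12 with quantile normalization, and 12 and 14 when mitochondrial and histone genes were left out of the scaling.

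Every library carried hepatocyte markers, and the summed levels of each marker list overlapped between mid S and the gap fractions. The 8 hepatocyte markers summed to 28250 to 55810 TPM in mid S, against 25920 to 53510 TPM in the gap fractions. Of the 8, 7 had a mean of at least 5 TPM, and ALB, the gene of serum albumin, was the highest. APOB, another of the 8, was at 0.408 to 1.08 TPM in mid S, against 0.357 to 1.57 TPM in the gap fractions. Of the 8 fibroblast markers 1 had a mean of at least 5 TPM (PDGFRB), and they summed to 13.4 to 25.9 TPM in mid S, against 10.7 to 26.0 TPM in the gap fractions. None of the 8 endothelial markers had a mean of at least 5 TPM, and they summed to 11.3 to 18.6 TPM in mid S, against 6.45 to 17.99 TPM in the gap fractions. Of the 8 leukocyte markers 2 had such a mean, and they summed to 1413 to 2361 TPM in mid S, against 1154 to 2385 TPM in the gap fractions. LYZ, which encodes lysozyme, carried that sum, while PTPRC, which defines leukocytes as CD45, reached at most 0.112 TPM in mid S and 0.14 TPM in the gap fractions. Reads recovered per library were 6115201 to 8510800 in mid S and 6940974 to 8236144 in the gap fractions, with a median of 243 reads per tested gene and library. Protein-coding genes above 0 numbered 15785 to 16429 in mid S, against 15022 to 16095 in the gap fractions (exact two-sided permutation test, p = 0.114, n = 4 each). The mitochondrial share of protein-coding TPM was 7.28% to 29.7% in mid S, against 4.28% to 24.4% in the gap fractions (exact two-sided permutation test, p = 0.686, n = 4 each). The smallest p that 4 against 4 can give is 0.0286, and the part of these library measures in the results was not tested.

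**Figure D1:**
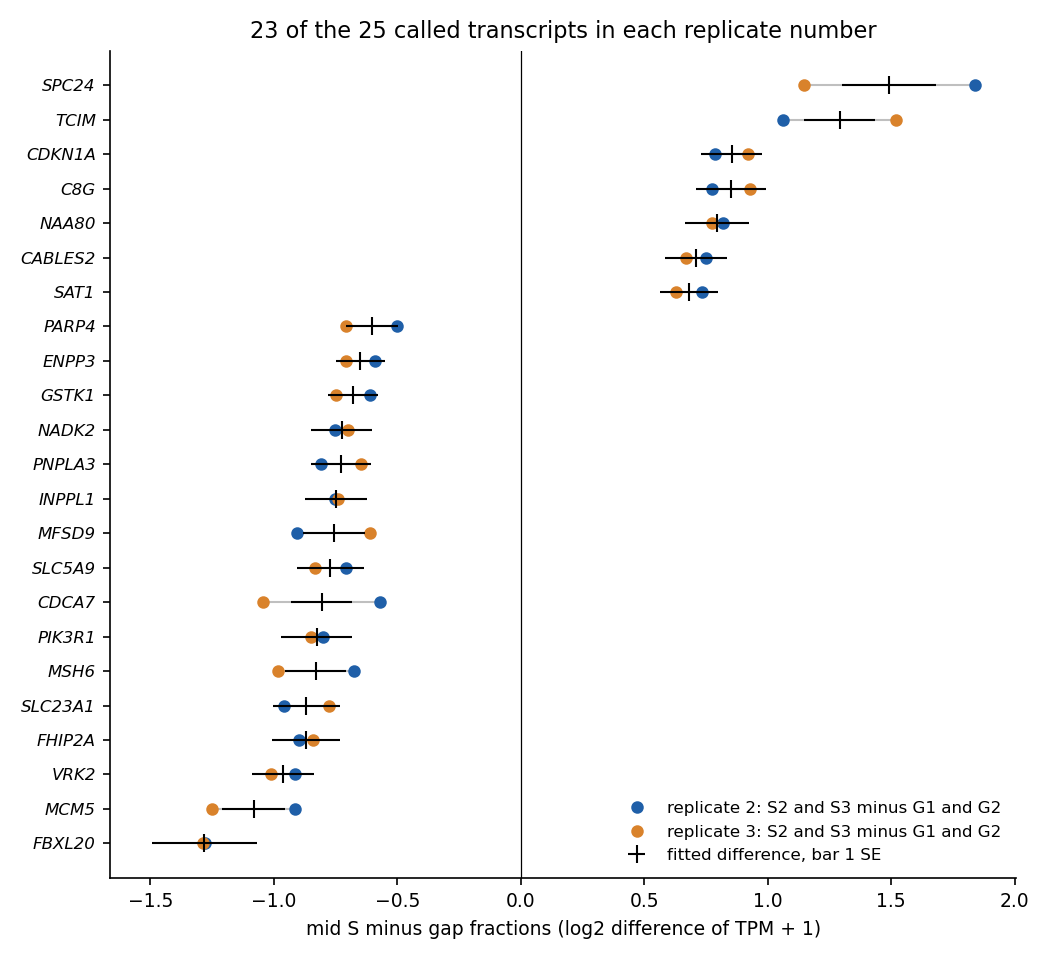
Log2 differences of TPM + 1, mid S minus gap fractions, for 23 of the 25 called transcripts (rows), from the libraries of replicate 2 (blue), those of replicate 3 (orange) and the fit over all 8 libraries (black tick, bar 1 SE). Both replicate numbers lie on the same side of 0 for each of the 23, between 0.63 and 1.84 for the 7 that rose and between -1.28 and -0.50 for the 16 that fell. The choice of the genes from these same libraries favours such agreement, so nothing is read from it.

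Stretches of sequence just before the transcription start are shown for 4 of the called genes. Promoter elements such as the CCAAT box, bound by NF-Y, and the CHR element, bound by the MuvB complexes, are known from cell cycle genes. Of the 24 genes singled out (12 in each direction whose groups did not overlap, the called ones first), 16 had a RefSeq promoter entry (GRCh38.p14). Shown are those with an entry and the smallest p in each direction, with TCIM left out. Each stretch is the 250 bases before the start, 5′ to 3′ on the strand of the gene, with matches to the motifs searched, on either strand, in capitals. The motifs were the CCAAT box with the letters CCAAT, the CHR with the letters TTTGAA, and the 2 E2F-type motifs TTTGGCGC and TTTCGCGC. SPC24 (chr19:11155783-11156032, minus strand) and SAT1 (chrX:23782923-23783172, plus strand) rose. ENPP3 (chr6:131637052-131637301, plus strand) and FBXL20 (chr17:39402557-39402806, minus strand) fell.
SPC24: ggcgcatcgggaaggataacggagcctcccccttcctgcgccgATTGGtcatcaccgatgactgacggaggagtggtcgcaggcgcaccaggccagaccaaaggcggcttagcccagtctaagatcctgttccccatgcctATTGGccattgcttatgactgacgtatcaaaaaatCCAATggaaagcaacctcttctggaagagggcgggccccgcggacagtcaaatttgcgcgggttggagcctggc
SAT1: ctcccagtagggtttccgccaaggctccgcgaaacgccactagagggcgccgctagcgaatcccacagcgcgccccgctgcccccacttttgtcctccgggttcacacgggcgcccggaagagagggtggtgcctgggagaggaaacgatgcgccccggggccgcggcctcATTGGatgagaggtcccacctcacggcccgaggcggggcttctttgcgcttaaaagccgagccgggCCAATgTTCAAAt
ENPP3: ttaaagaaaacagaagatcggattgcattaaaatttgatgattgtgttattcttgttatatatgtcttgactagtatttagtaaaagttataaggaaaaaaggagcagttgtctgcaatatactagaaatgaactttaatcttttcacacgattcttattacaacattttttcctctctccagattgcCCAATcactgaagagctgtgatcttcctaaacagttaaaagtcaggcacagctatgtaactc
FBXL20: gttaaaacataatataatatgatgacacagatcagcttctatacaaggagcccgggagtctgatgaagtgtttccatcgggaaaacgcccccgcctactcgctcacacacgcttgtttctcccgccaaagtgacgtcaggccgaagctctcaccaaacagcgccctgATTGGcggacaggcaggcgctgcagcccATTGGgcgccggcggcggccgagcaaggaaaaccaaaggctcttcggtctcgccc
CCAAT or its complement stood at 3 places in SPC24, 2 in SAT1, 1 in ENPP3 and 2 in FBXL20, so that risers and fallers alike held it. The CHR letters were in SAT1 alone among the 4, within the last 7 bases before the start, next to a CCAAT, and neither E2F-type motif was in any of the 4 windows. Over all 35116 RefSeq windows of the same length, CCAAT was in 32%, TTTGAA in 13.3%, TTTGGCGC in 0.55% and TTTCGCGC in 0.439%. These are letter matches only, and no binding was measured.

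Among the risers, SPC24 and TCIM moved most. SPC24, a subunit of the NDC80 complex that ties kinetochores to microtubules, had 133 and 135 TPM in S2 and S3 of replicate 2 and 201 and 181 TPM in S2 and S3 of replicate 3. SPC24 stood at 31.98 and 42.1 TPM in G1 and G2 of replicate 2 and 65.4 and 112 TPM in G1 and G2 of replicate 3. All 4 mid S libraries lay above all 4 gap libraries, and the level was about as high in S2 as in S3. The log2 difference was 1.49 ± 0.19 (SE; limma adjusted p = 0.0137). Set against each gap fraction, SPC24 was 1.78 higher than in G1 (adjusted p = 0.00038, limma) and 1.20 higher than in G2 (adjusted p = 0.0651, limma). No other of the 64 tested G2/M genes was more than 1 above G2 on the log2 scale. In the fractions on either side it had 26.9 and 64.2 TPM in S1 and S4 of replicate 2 and 122 and 140.0 TPM in S1 and S4 of replicate 3. These lay below the mid S level of the same replicate in each.

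TCIM, a small regulator of transcription linked to Wnt signalling and immune responses, had 169.8 and 248 TPM in S2 and S3 of replicate 2 and 139 and 142 TPM in S2 and S3 of replicate 3. TCIM stood at 92.9 and 103 TPM in G1 and G2 of replicate 2 and 48.4 and 48.01 TPM in G1 and G2 of replicate 3. Again the groups did not overlap, and S3 of replicate 2 was the highest library. The log2 difference was 1.29 ± 0.14 (SE; limma adjusted p = 0.00972). TCIM was the only gene past the threshold against G2 on its own (1.26, limma adjusted p = 0.0389, 0.00936% of the genes tested). That call was lost, with 0 genes passing against G2, without the replicate term, without the trend, with a mean of at least 1 TPM or no filter, and with median-ratio, quantile or reduced scaling. The call was also lost without either S2 library and without G2 replicate 3. TCIM was also 1.33 above G1 (limma adjusted p = 0.000879). Its S4 library of replicate 2, at 192 TPM, lay above S2 of the same replicate at 169.8 TPM, so the high stretch of TCIM reached into S4 there. With each of the 8 libraries left out in turn, TCIM stayed called against the pooled gap fractions in 7 of 8 fits. The other called genes did so in fewer fits, from 6 for MCM5 to 0 for NADK2 and PARP4. The number was 1 for SAT1, C8G, NAA80, CABLES2, PNPLA3, FBXL20, SLC5A9, INPPL1, PIK3R1, MFSD9 and FHIP2A.

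CDKN1A, the p21 inhibitor of cyclin-dependent kinases and a target of p53, had 92.2 and 86.4 TPM in S2 and S3 of replicate 2 and 386 and 393 TPM in S2 and S3 of replicate 3. CDKN1A stood at 44.4 and 59.2 TPM in G1 and G2 of replicate 2 and 183 and 229.5 TPM in G1 and G2 of replicate 3. Replicate 3 stood above replicate 2 in every fraction, so the groups overlapped over all 8 libraries and separated within each replicate number. CDKN1A rose by 0.85 ± 0.12 (SE; limma adjusted p = 0.0286), by 0.79 in replicate 2 and 0.92 in replicate 3.

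Another 4 of the risers have roles outside the replication machinery. SAT1, which acetylates spermidine and spermine and so feeds polyamine breakdown, ranged over 1016 to 1282 TPM in mid S, against 620.3 to 804 TPM in the gap fractions, with no overlap (0.68 ± 0.12, SE). C8G, the gamma chain of complement component C8 and a product of the liver, ranged over 52.7 to 78.8 TPM in mid S, against 28.9 to 46.8 TPM in the gap fractions, again with no overlap (0.85 ± 0.14, SE). NAA80, the enzyme that acetylates the N-terminus of actin, ranged over 45.9 to 76.1 TPM in mid S, against 25.2 to 47.4 TPM in the gap fractions (0.80 ± 0.13, SE). CABLES2, named for its link to CDK5 and ABL, ranged over 37.5 to 82.2 TPM in mid S, against 21.6 to 55.1 TPM in the gap fractions (0.71 ± 0.13, SE). In NAA80 and CABLES2 the groups overlapped across replicate numbers and separated within each. Mid S lay above the gap fractions within both numbers for 3.09% of all genes tested. NAA80 lies over part of HYAL3 in the annotation, and reads of overlapping genes may not be told apart. In all, 15 of the 25 overlap an annotated gene. The next genes by p with higher values and no overlap between the groups were GDF15, NKD1, ODAM, MXD3, PLXNB3, H2AC8 and H2BC7, which did not pass (limma adjusted p = 0.0585 to 0.11). GDF15, a secreted stress cytokine, ranged over 495 to 739 TPM in mid S, against 293 to 418 TPM in the gap fractions. NKD1, an inhibitor of Wnt signalling, ranged over 374 to 424 TPM in mid S, against 220.0 to 309.8 TPM in the gap fractions. Genes with mid S above the gap fractions in all 8 libraries made up 0.608% of the genes tested (65 genes), and the reverse held for 2.23% (238 genes).

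**Figure D2:**
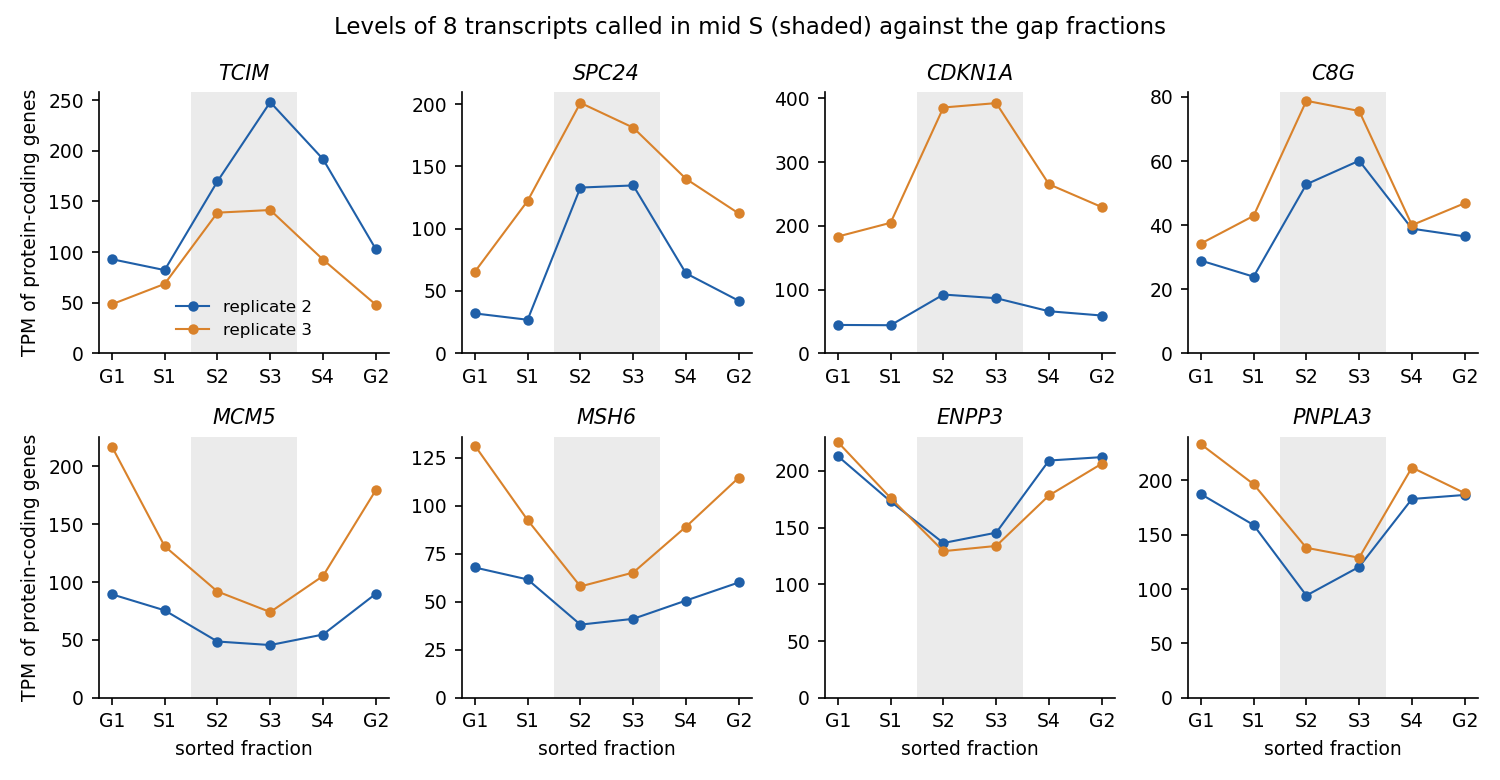
TPM of protein-coding genes (linear axis from 0) across the 6 sorted fractions for 4 transcripts that rose (top) and 4 that fell (bottom) in mid S (shaded), each point a library, blue for replicate 2 and orange for replicate 3. Each replicate has its highest or lowest stretch at S2 and S3, except that TCIM in S4 of replicate 2, at 192 TPM, lies above S2 of that replicate.

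MCM5 had the smallest p among the fallers. A subunit of the MCM helicase, whose loading licenses origins, it had 48.6 and 45.6 TPM in S2 and S3 of replicate 2 and 91.8 and 74.1 TPM in S2 and S3 of replicate 3. MCM5 stood at 89.4 and 89.8 TPM in G1 and G2 of replicate 2 and 217 and 179 TPM in G1 and G2 of replicate 3. Within each replicate both mid S libraries lay below both gap libraries, whereas S2 of replicate 3 lay above G1 and G2 of replicate 2. The log2 difference was -1.08 ± 0.13 (SE; limma adjusted p = 0.00972). MCM5 was about as far from G1 (-1.15, limma adjusted p = 0.00116) as from G2 (-1.01, limma adjusted p = 0.0651). On either side it had 75.5 and 54.6 TPM in S1 and S4 of replicate 2 and 131 and 105 TPM in S1 and S4 of replicate 3. These lay between the mid S and the gap levels of the same replicate.

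MSH6 and CDCA7 were also lower in mid S within each replicate. Their S1 and S4 levels did not all lie between mid S and the gap levels, as those of MCM5 did. In replicate 2, MSH6 in S1 (61.6 TPM) and CDCA7 in S4 (194 TPM) lay among the gap levels. MSH6, which recognises mismatched bases left by replication, had 38.1 and 41.1 TPM in S2 and S3 of replicate 2 and 57.98 and 65.2 TPM in S2 and S3 of replicate 3. MSH6 stood at 67.8 and 60.05 TPM in G1 and G2 of replicate 2 and 131 and 115 TPM in G1 and G2 of replicate 3. Mid S was the lower side in each replicate (-0.83 ± 0.12, SE; limma adjusted p = 0.0287). CDCA7, an E2F- and MYC-responsive partner of the remodeller HELLS, had 120.1 and 133 TPM in S2 and S3 of replicate 2 and 195 and 217 TPM in S2 and S3 of replicate 3. CDCA7 stood at 176 and 201 TPM in G1 and G2 of replicate 2 and 414 and 435 TPM in G1 and G2 of replicate 3. Replicate 3 held more of it than replicate 2 in each fraction, and the difference was -1.04 there and -0.57 in replicate 2 (-0.81 ± 0.12 in the fit, SE; limma adjusted p = 0.0287). VRK2, a kinase related to a vaccinia virus kinase, ranged over 15.8 to 36.7 TPM in mid S, against 31.1 to 79.7 TPM in the gap fractions (-0.96 ± 0.13, SE; limma adjusted p = 0.016), separating within each replicate only.

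The other fallers lie outside the replication machinery, and 6 of them separated over all 8 libraries. ENPP3, an ectonucleotidase of the cell surface, had 136 and 146 TPM in S2 and S3 of replicate 2 and 129 and 134 TPM in S2 and S3 of replicate 3. ENPP3 stood at 213 and 212 TPM in G1 and G2 of replicate 2 and 226 and 206 TPM in G1 and G2 of replicate 3. Its 4 mid S libraries and its 4 gap libraries each stood close together, and its SE was the smallest among the called genes (-0.65 ± 0.10, SE; limma adjusted p = 0.0287). PNPLA3, a lipid droplet protein that acts on triglycerides and retinyl esters, had 94.05 and 120.4 TPM in S2 and S3 of replicate 2 and 138 and 129 TPM in S2 and S3 of replicate 3. PNPLA3 stood at 187 and 186 TPM in G1 and G2 of replicate 2 and 233 and 188 TPM in G1 and G2 of replicate 3. The groups did not overlap, and G1 of replicate 3 stood above the other gap libraries (-0.73 ± 0.12, SE; limma adjusted p = 0.0343). FBXL20, an F-box subunit of a ubiquitin ligase, had the largest difference of the fallers (-1.28 ± 0.21, SE) and ranged over 11.5 to 15.5 TPM in mid S, against 21.3 to 43.8 TPM in the gap fractions. SLC5A9, a sodium-coupled sugar transporter, ranged over 97.7 to 142 TPM in mid S, against 174 to 259.7 TPM in the gap fractions (-0.77 ± 0.14, SE). INPPL1, the inositol phosphatase SHIP2, ranged over 51.9 to 73.2 TPM in mid S, against 83.8 to 116 TPM in the gap fractions (-0.75 ± 0.13, SE). PARP4, the vault-associated member of the PARP family, ranged over 90.2 to 106 TPM in mid S, against 133 to 175 TPM in the gap fractions (-0.60 ± 0.11, SE). FBXL20, SLC5A9, INPPL1 and PARP4 had no overlap between the groups.

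A further 6 fallers separated within each replicate but not across both, and 12.6% of all genes tested had mid S below within both replicate numbers. PIK3R1, the p85-alpha subunit of PI3-kinase, ranged over 15.99 to 29.9 TPM in mid S, against 26.9 to 56.4 TPM in the gap fractions (-0.83 ± 0.14, SE). SLC23A1, a vitamin C transporter of liver, kidney and gut, ranged over 22.3 to 58.8 TPM in mid S, against 44.7 to 90.2 TPM in the gap fractions (-0.87 ± 0.14, SE). GSTK1, the kappa-class glutathione transferase of mitochondria and peroxisomes, ranged over 95.3 to 142 TPM in mid S, against 141 to 242 TPM in the gap fractions (-0.68 ± 0.10, SE). NADK2, the mitochondrial NAD kinase, ranged over 25.2 to 49.5 TPM in mid S, against 43.7 to 82.3 TPM in the gap fractions (-0.73 ± 0.12, SE). MFSD9, a member of the major facilitator family of transporters, ranged over 32.3 to 68.98 TPM in mid S, against 63.2 to 109.5 TPM in the gap fractions (-0.76 ± 0.13, SE). FHIP2A, which binds the FTS-Hook complex of vesicle transport, ranged over 14.2 to 31.3 TPM in mid S, against 27.8 to 54.5 TPM in the gap fractions (-0.87 ± 0.14, SE). The next genes by p with lower values and no overlap did not pass (limma adjusted p = 0.0558 to 0.0618): SH2D4A, TOM1L1, EVC, AGO4, FBXO44 and SERPINA3. SERPINA3, the secreted protease inhibitor alpha-1-antichymotrypsin, ranged over 17.4 to 35.7 TPM in mid S, against 39.3 to 62.4 TPM in the gap fractions. In these libraries of many cells, fewer cells that hold a transcript and less of it per cell cannot be told apart.

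Whether the 25 transcripts also stood apart from the rest of S phase was read from S1 and S4. This comparison shares the mid S libraries with the one that chose the genes, so its values are set beside the first and are not a separate test of them. It called 0 of the 10687 genes in limma with the replicate term (0%, smallest adjusted p = 0.613), with 636 genes at an unadjusted p below 0.05 (5.95%). A limma fit with a mean for each fraction called 1 gene, the fit over all 12 sorted libraries 13, and voom on recovered reads 3. All 25 were on the same side of S1 and S4 as of G1, of G2 and of the pooled gap fractions. Over all genes tested, 20.1% were higher and 39.4% lower in mid S in all of these comparisons. The differences from S1 and S4 were 0.37 to 1.10 for the 9 that rose and -0.74 to -0.43 for the 16 that fell, with unadjusted p of 0.000235 to 0.0268. The difference from S1 and S4 was the smaller of the pair for all but C8G, for example -0.47 ± 0.15 (SE) for MCM5 beside -1.08 ± 0.13 (SE) against the gap fractions. C8G and CABLES2 were about as far from S1 and S4 (0.87 and 0.70) as from the gap fractions (0.85 and 0.71).

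Read library by library, S2 and S3 were both above all of G1, S1, S4 and G2 in both replicates for 7 of the 9 risers, all but TCIM and SAT1. They were both below for 15 of the 16 fallers, all but FBXL20. FBXL20 in S4 of replicate 3 was at 11.9 TPM, between S2 at 11.5 TPM and S3 at 12.2 TPM of that replicate. Over all genes tested, 1.11% were above in this way (119 genes) and 2.97% below (317 genes). These shares include the rule's own gap libraries, so nothing is read from the excess. Of genes singled out but not called, GDF15, NKD1, ODAM and PLXNB3 were above the other 4 fractions in both replicates. GDF15 had 577 and 495 TPM in S2 and S3 of replicate 2 and 739 and 661 TPM in S2 and S3 of replicate 3. GDF15 stood at 369 and 383 TPM in G1 and G2 of replicate 2 and 293 and 418 TPM in G1 and G2 of replicate 3. On either side it had 347 and 408 TPM in S1 and S4 of replicate 2 and 409 and 424 TPM in S1 and S4 of replicate 3. Its mid S libraries were the highest of each replicate, in S2 as in S3.

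Mid S was also set against each gap fraction alone, in a fit with a mean for each of the 4 fractions. Limma called 334 genes in mid S against G1 (3.13%), 221 higher (2.07%) and 113 lower (1.06%), and 1 gene in mid S against G2. In this form of fit the pooled gap fractions gave 264 genes, and over all 12 sorted libraries they gave 552, beside 514 against G1, so the 334 is not to be read against the 25 of the fit with 1 mean per side. The G1 count was 0 without the replicate term (242 at an unadjusted p below 0.05), 39 without the trend and 563 with voom on recovered reads. It was 87 without G1 replicate 2, 92 without S2 replicate 2, 89 without S2 replicate 3 and 218 without G1 replicate 3. At an unadjusted p below 0.05 mid S against G2 gave 1098 genes (10.3%), 290 higher (2.71%) and 808 lower (7.56%). Limma called 11 with array weights and 8 with voom. Without 1 library the G2 count was 15 (G2 replicate 2), 6 (G1 replicate 2, G1 replicate 3 or S3 replicate 3), 5 (G2 replicate 3), 2 (S3 replicate 2) or 0 (either S2 library). Both comparisons have the same mid S libraries, and the G1 and G2 libraries also took part in choosing the 25. The values of the 25 against G1 and against G2 are therefore not a separate test of them. All 25 transcripts were called against G1, the risers by 0.68 to 1.78 and the fallers by -1.65 to -0.60. Against G2 the risers were 0.62 to 1.26 higher and the fallers -1.01 to -0.58, with TCIM alone past the threshold.

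**Figure D3:**
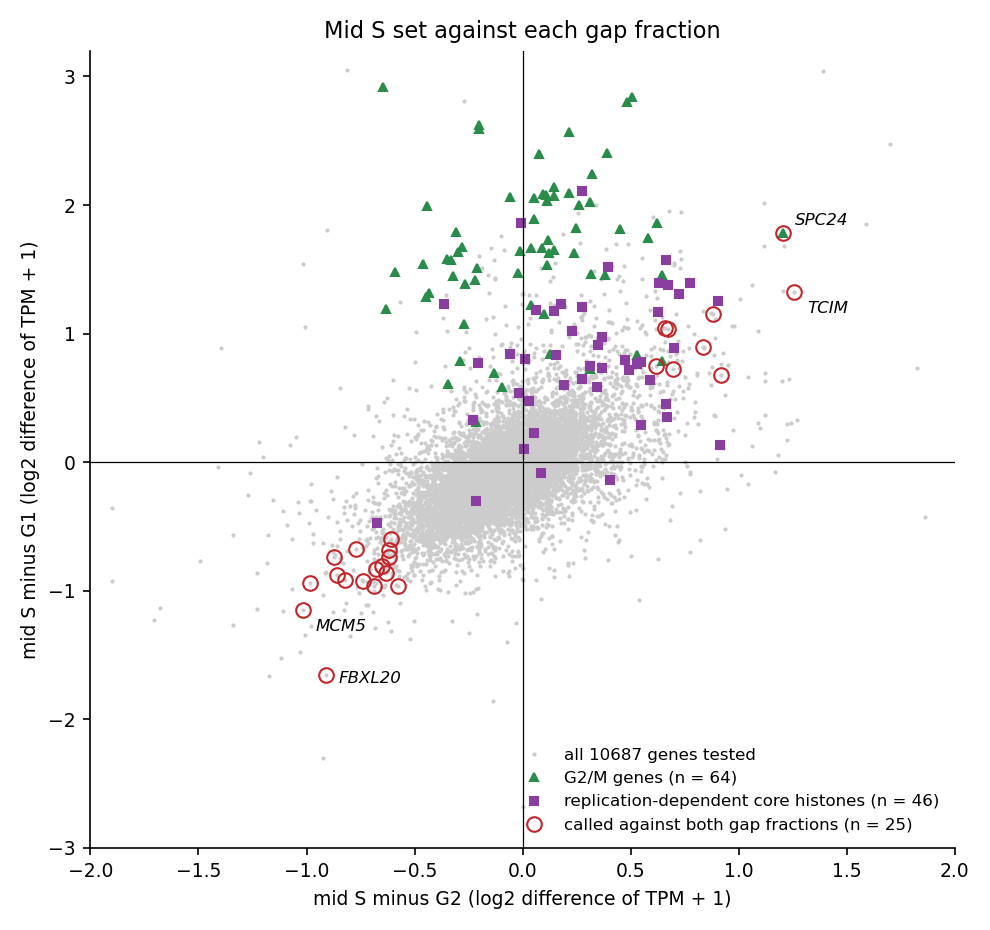
Log2 differences of TPM + 1 for mid S minus G2 (horizontal) and mid S minus G1 (vertical), each grey point 1 of 10687 genes (5 lie outside the axes), with G2/M genes as green triangles, replication-dependent core histones as purple squares and the 25 called genes as red rings. G2/M genes spread along the vertical axis (median 1.65 against G1 and 0.08 against G2). The called genes lie away from 0 on both axes, which their choice from these same libraries favours, so nothing is read from it.

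The mitotic genes stood above G1 in both replicates, while their place relative to G2 differed by replicate. Of 66 G2/M genes, 64 were tested, and all 64 had a positive difference between mid S and the pooled gap fractions (33.9% of all genes did). Of them 35 did so at an unadjusted p below 0.05 (4.32% of all genes), and SPC24 was the only member to pass. Against G1 56 of the 64 were called higher (2.07% of all genes), whereas against G2 no member passed. The median of the 64 was 1.65 above G1, 0.08 above G2 and 0.38 above S1 and S4, beside medians of -0.10, -0.09 and 0.0013 over all genes tested. By library, their median log2(TPM + 1) in replicate 2 was 5.89 in S2 and 6.997 in S3, against 4.21 in G1 and 5.91 in G2. In replicate 3 it was 6.89 in S2 and 7.28 in S3, against 5.71 in G1 and 7.43 in G2. Mid S was thus level with or above G2 in replicate 2 and below it in replicate 3, which the median of 0.08 averages. AURKB, the kinase of the chromosomal passenger complex, had 218 and 419.7 TPM in S2 and S3 of replicate 2 and 326 and 398 TPM in S2 and S3 of replicate 3. AURKB stood at 22.3 and 167 TPM in G1 and G2 of replicate 2 and 91.1 and 322 TPM in G1 and G2 of replicate 3. G1 was the low fraction, and G2 was close to mid S in replicate 3 and lower in replicate 2 (2.84 above G1, limma adjusted p = 0.00038; 0.51 above G2, limma adjusted p = 0.547). CCNB1, the mitotic cyclin B1, was 1.54 above G1 (limma adjusted p = 0.00118) and -0.46 relative to G2 (limma adjusted p = 0.467). CDK1, its kinase, was 2.07 above G1 and -0.06 relative to G2. TOP2A, the topoisomerase that untangles sister chromatids, ranged over 253 to 621 TPM in mid S, against 127 to 675 TPM in the gap fractions. ZWINT, a kinetochore protein, ranged over 169 to 504 TPM in mid S, against 82.7 to 331 TPM in the gap fractions (0.72 ± 0.15, SE; limma adjusted p = 0.0833).

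Most core histone mRNAs of the replication-dependent kind had higher values in mid S, and no member passed. Of 61 listed, 46 were tested, and 44 had a positive difference. Of these, 25 had one at an unadjusted p below 0.05 and 0 were lower at that level, beside 4.32% and 11.8% of all genes. The median was 0.58 against the pooled gap fractions, 0.79 against G1, 0.33 against G2 and 0.38 against S1 and S4. Against G1 20 of the 46 were called higher (2.07% of all genes). By library, the median log2(TPM + 1) of the 46 was 6.598 and 7.22 in S2 and S3 of replicate 2 and 6.91 and 7.08 in S2 and S3 of replicate 3. It was 5.46 and 6.18 in G1 and G2 of replicate 2 and 6.399 and 7.05 in G1 and G2 of replicate 3. Mid S lay above G2 in replicate 2, while in replicate 3 G2 lay between S2 and S3, with S4 at 7.15. H2AC8, a gene for histone H2A, had 214 and 322 TPM in S2 and S3 of replicate 2 and 255 and 266 TPM in S2 and S3 of replicate 3. H2AC8 stood at 59.5 and 152 TPM in G1 and G2 of replicate 2 and 127 and 179 TPM in G1 and G2 of replicate 3. The groups did not overlap (1.12 ± 0.26, SE; limma adjusted p = 0.107). H3C3, for histone H3, ranged over 446 to 809 TPM in mid S, against 240.0 to 686 TPM in the gap fractions (0.90 ± 0.21, SE; limma adjusted p = 0.11). H4C2, for histone H4, ranged over 68.01 to 129 TPM in mid S, against 40.5 to 55.6 TPM in the gap fractions (0.80 ± 0.19, SE; limma adjusted p = 0.111). These genes are near copies of each other, and reads that fit several of them make the value of any single member uncertain. SLBP, which binds the stem-loop of histone mRNAs, ranged over 65.6 to 166 TPM in mid S, against 67.8 to 248 TPM in the gap fractions (-0.37 ± 0.15, SE; limma adjusted p = 0.265).

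Linker histones bind the DNA between nucleosomes. Of 7 tested, 6 had a positive difference (33.9% of all genes did), with a median of 0.46. H1-10, which is made outside replication, ranged over 230.4 to 316 TPM in mid S, against 134 to 214 TPM in the gap fractions, with no overlap (0.60 ± 0.15, SE; limma adjusted p = 0.115). H1-4, made with replication, ranged over 1136 to 1811 TPM in mid S, against 797 to 2399 TPM in the gap fractions, overlapping widely (0.22 ± 0.19, SE; limma adjusted p = 0.611).

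**Figure D4:**
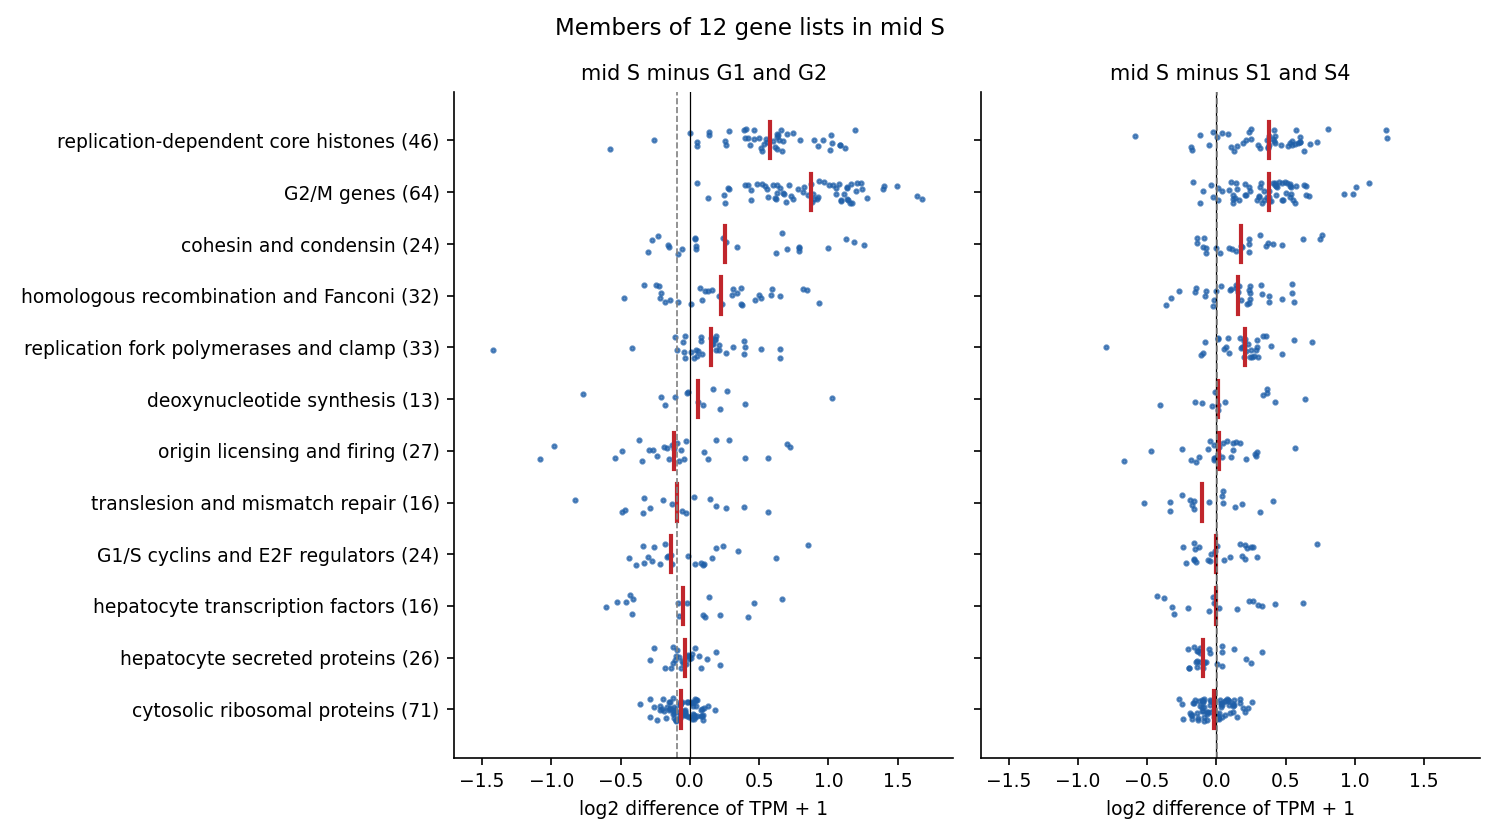
Log2 differences of TPM + 1 for the members of 12 gene lists, mid S minus G1 and G2 (left) and mid S minus S1 and S4 (right), with the number tested in parentheses, a red bar at each list's median and a dashed line at the median of all genes tested. Core histones (median 0.58 left and 0.38 right) and G2/M genes (0.88 and 0.38) lie to the right of the dashed line on both sides.

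Licensing genes went both ways. Of 27 genes for origin licensing and firing, 1 was called lower (MCM5), and 7 were lower and 3 higher at an unadjusted p below 0.05 (11.8% and 4.32% of all genes). The median was -0.12, close to that of all genes. The 7 included MCM5, MCM6, MCM4, MCM2 and MCM7 of the helicase, GINS2 and ORC5. MCM6 had 22.04 and 27.3 TPM in S2 and S3 of replicate 2 and 34.6 and 39.5 TPM in S2 and S3 of replicate 3. MCM6 stood at 31.4 and 41.2 TPM in G1 and G2 of replicate 2 and 124 and 81.6 TPM in G1 and G2 of replicate 3. It was lower in mid S within each replicate (-0.98 ± 0.21, SE) but did not pass (limma adjusted p = 0.0833). The 3 with higher values were RECQL4, GINS1 and TICRR, factors of origin firing. RECQL4, a helicase of the RecQ family, ranged over 300.5 to 436 TPM in mid S, against 111 to 402 TPM in the gap fractions (0.72 ± 0.18, SE; limma adjusted p = 0.115). CDC6, which loads MCM on origins, showed -0.19 ± 0.13 (SE; limma adjusted p = 0.494). MCM3, the member with the highest mean, averaged 686 ± 279.7 TPM in mid S and 796 ± 410.1 TPM in the gap fractions (SD, n = 4 each).

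For 33 genes for polymerases, clamp and fork factors the median was 0.15, with 0.30 in replicate 2 and -0.03 in replicate 3. It was 0.13 against G1 and 0.06 against G2. Of the 33, none was called, and 6 were higher and 2 lower at an unadjusted p below 0.05 (4.32% and 11.8% of all genes). POLD4, the small subunit of polymerase delta, was among the 2 with lower values (-1.42 ± 0.32, SE; limma adjusted p = 0.0974). It ranged over 1.81 to 5.23 TPM in mid S, against 7.97 to 13.6 TPM in the gap fractions. Its mid S mean lay below the filter of 5 TPM, which POLD4 passed through the gap libraries, so nothing is read from this separation. CHTF18, of the alternative clamp loader, ranged over 113 to 195 TPM in mid S, against 48.02 to 213 TPM in the gap fractions (0.65 ± 0.21, SE; limma adjusted p = 0.169). PCNA, the clamp itself, showed -0.09 ± 0.13 (SE; limma adjusted p = 0.764). Of 13 genes of deoxynucleotide synthesis, none was called, and RRM2 and DUT pointed opposite ways. RRM2, the regulated subunit of ribonucleotide reductase, had 149 and 232 TPM in S2 and S3 of replicate 2 and 245 and 229 TPM in S2 and S3 of replicate 3. RRM2 stood at 46.3 and 89.2 TPM in G1 and G2 of replicate 2 and 151 and 177 TPM in G1 and G2 of replicate 3. It was higher in mid S within each replicate (1.03 ± 0.24, SE; limma adjusted p = 0.107), more so in replicate 2 (1.52) than in replicate 3 (0.53). DUT, which removes dUTP, ranged over 29.3 to 43.4 TPM in mid S, against 39.6 to 90.6 TPM in the gap fractions (-0.77 ± 0.18, SE; limma adjusted p = 0.109).

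The medians of recombination and cohesion genes lay above that of all genes, and neither list held a call against the pooled gap fractions. Both medians were larger in replicate 2 (0.40 and 0.44) than in replicate 3 (0.06 and 0.08). They were also larger against G1 (0.30 and 0.33) than against G2 (0.15 and 0.08). Against G1, 4 recombination genes and 11 cohesin and condensin genes were called higher (2.07% of all genes). Of 32 genes of homologous recombination and the Fanconi pathway, 10 were higher and 1 lower at an unadjusted p below 0.05 (4.32% and 11.8% of all genes), with a median of 0.22. BRCA2, a mediator of homologous recombination, ranged over 28.8 to 77.7 TPM in mid S, against 14.02 to 50.5 TPM in the gap fractions (0.84 ± 0.20, SE; limma adjusted p = 0.111). RAD54L, a DNA translocase of the same pathway, ranged over 147 to 313 TPM in mid S, against 63.5 to 264 TPM in the gap fractions (0.81 ± 0.19, SE; limma adjusted p = 0.109). Of 24 cohesin and condensin genes, 9 were higher and 1 lower at that level, beside the same shares of all genes, with a median of 0.25. CDCA5, or sororin, which holds cohesin on replicated chromatids, ranged over 49.2 to 125 TPM in mid S, against 16.9 to 95.7 TPM in the gap fractions (1.19 ± 0.26, SE; limma adjusted p = 0.0934). ESCO2, the acetyltransferase of cohesin in S phase, ranged over 14.4 to 45.8 TPM in mid S, against 3.1 to 32.5 TPM in the gap fractions (1.13 ± 0.30, SE; limma adjusted p = 0.12). Of 16 genes of translesion synthesis and mismatch repair, MSH6 was called lower, 4 in all were lower and 2 higher at an unadjusted p below 0.05 (11.8% and 4.32% of all genes).

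Of 24 regulators of the G1/S step tested, CDKN1A was called higher, 2 were higher and 4 lower at an unadjusted p below 0.05, and the median was -0.13. These counts lie close to the shares over all genes (4.32% and 11.8%). CCNE1, cyclin E1, which partners CDK2 at the start of S phase, showed 0.04 ± 0.29 (SE; limma adjusted p = 0.961), 0.45 in replicate 2 and -0.37 in replicate 3. CCNE2 had the same reversal between replicates (0.34 and -0.89). E2F1 showed -0.39 ± 0.18 (SE; limma adjusted p = 0.297), nearly all of it from replicate 3 (-0.78 there). Of 16 replication checkpoint genes, 0 were called and 1 was lower at an unadjusted p below 0.05 (ETAA1), and CHEK1 and CLSPN showed 0.04 ± 0.15 and 0.21 ± 0.14 (SE). Of 19 p53 targets, CDKN1A was called and 5 in all were higher at an unadjusted p below 0.05 (4.32% of all genes), with a median of 0.05.

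No liver gene of the lists was called. Of 26 secreted hepatocyte proteins tested, 0 were called and 1 was lower at an unadjusted p below 0.05 (RBP4; 11.8% of all genes were), with a median of -0.04. ALB averaged 18682 ± 6446.5 TPM in mid S and 18367 ± 6639.8 TPM in the gap fractions (SD, n = 4 each). Of 16 hepatocyte transcription factors none was called, with 3 higher and 5 lower at that level (4.32% and 11.8% of all genes). HNF4A, a nuclear receptor central to hepatocyte identity, had 218 and 216 TPM in S2 and S3 of replicate 2 and 233 and 247 TPM in S2 and S3 of replicate 3. HNF4A stood at 437 and 336 TPM in G1 and G2 of replicate 2 and 314 and 316 TPM in G1 and G2 of replicate 3. Its groups did not overlap (-0.60 ± 0.12, SE), but it did not pass (limma adjusted p = 0.0788). NR1H4, the bile acid receptor FXR, ranged over 64.5 to 224 TPM in mid S, against 119 to 280.3 TPM in the gap fractions (-0.53 ± 0.15, SE; limma adjusted p = 0.141). CEBPB, a factor of the acute phase and of proliferation, ranged over 79.4 to 181 TPM in mid S, against 42.5 to 123 TPM in the gap fractions (0.66 ± 0.18, SE; limma adjusted p = 0.134). Cholesterol synthesis (23 tested, median -0.04), glycolysis (17 tested, median -0.07) and cytosolic ribosomal proteins (71 tested, median -0.06) held no called member. These medians and that of the secreted proteins lay within the shift that scaling makes, being 0.04 for cholesterol synthesis, 0.0038 for glycolysis, 0.01 for ribosomal proteins and 0.04 for secreted proteins with median-ratio scaling.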

How the data were processed

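RNA of sorted HepG2 cells was measured in 12 libraries, of which 8 entered the main comparison. The deposited values are log2(TPM + 1) per gene on the log2 scale, as the file headers and the values show. The submitters' processing notes name Trimmomatic, HISAT2, SAMtools, cutadapt and BWA with build hg38 for the series, and name no read counter. The labels' protocols name a stranded kit, but whether counting used strand is not stated.

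Values were turned back to TPM and mapped to symbols (61481 of 78932 identifiers). Protein-coding genes by RefSeq biotype (GRCh38.p14) were kept (19323), and each library was rescaled to 1000000. Genes with a mean of at least 5 over the 8 libraries were tested with limma 3.58.1 (R 4.3.3) on log2(TPM + 1), with an intensity trend and replicate number as a block, and Benjamini-Hochberg adjustment over all 10687. Differences from G1 and from G2 came from a fit with 1 mean per fraction. Read counts were recovered from the TPM steps, as whole numbers within 0.05, for 49860 of 49864 genes. Replicate differences (3 minus 2) correlated between the 4 fractions (r = 0.577 to 0.646, across genes), so the numbers were taken to pair the libraries, a check that was made after calls had been seen. Fits were tested on simulated data.

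Named genes were the 25 called (2 of which are not reported here), 12 per direction with no overlap, 20 fixed cell cycle genes and the most abundant or lowest-p members of 24 lists. Members and lists were chosen with earlier results of these data known. Unsorted RNA and Repli-seq samples were not used here.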

Additional observations from a re-analysis of the deposited data

Results flagged for a closer look

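A single library stood far from the other 3 of its group, by the ratio of its gap to the group's whole range (above Dixon's 95% critical value for 4 samples), in 4 of 114 gene groups checked. Chance flags about 1 in 20 such groups. ODAM in mid S had a ratio of 0.837, with S3 of replicate 3 at 26.7 TPM below 29.6, 30.04 and 30.2 TPM in the other mid S libraries. RRM2 in mid S had a ratio of 0.833, with S2 of replicate 2 at 149 TPM below 232, 245 and 229 TPM. PNPLA3 in the gap fractions had a ratio of 0.964, with G1 of replicate 3 at 233 TPM above 187, 186 and 188 TPM. MKI67, the proliferation marker Ki-67, had a ratio of 0.997 in the gap fractions, with G2 of replicate 3 at 250.2 TPM above 142, 142 and 142 TPM.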

How the results depend on the processing

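All 25 called transcripts kept their direction under each of the 12 alternatives and in each of the 8 fits without 1 library. Their choice from these same libraries favours a kept direction, so nothing is read from it. The number called did not stay. For mid S against the gap fractions it was 25, and 9 with no filter on low values, 0 without the intensity trend, 43 with array weights, 264 with 1 mean per fraction, 552 with all 12 sorted libraries, 218 with voom on recovered reads, and 0 to 67 without 1 library. For mid S against G1 it was 334, and 115, 39, 514 and 563 with no filter, no trend, all 12 libraries and voom, and 87 to 391 without 1 library. For mid S against G2 it was 1, and 0 with a mean of at least 1, no filter, median-ratio, quantile or reduced scaling, or no trend, 11 with array weights, 2 with all 12 libraries, 8 with voom, and 0 to 15 without 1 library. For mid S against S1 and S4 it was 0, and 1 with 1 mean per fraction, 13 with all 12 libraries, 3 with voom, and 0 without any 1 library. Fewer samples enter a fit without a library, and 1 mean per fraction takes the difference between G1 and G2, and between S2 and S3, out of the spread. The cause of the other shifts was not tested. Where an arm kept 1 library, it was assumed to vary like the other groups.

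Without the replicate block, 0 genes were called in each of the 4 comparisons. The numbers pair the libraries by the correlation of their differences alone, since no label ties a number to one culture or sort.

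The 5 to 25 TPM range holds few reads in some libraries (from 22 for a called gene), which limits the precision there. Some genes above that range also hold few reads, such as C8G with 40 to 94 and H2BC7 with 35 to 138 over the 8 libraries.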

Other observations

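Early response genes are those that cells switch on within minutes of a stimulus. Of 19 tested, 14 had a positive difference (33.9% of all genes did), 6 were higher and 0 lower at an unadjusted p below 0.05 (4.32% and 11.8% of all genes), and none was called, with a median of 0.14. FOSL1, an AP-1 subunit, ranged over 20.9 to 95.5 TPM in mid S, against 11.9 to 54.9 TPM in the gap fractions (0.83 ± 0.20, SE; limma adjusted p = 0.111), and IER3, a stress-inducible survival gene, over 12.6 to 17.2 TPM in mid S, against 4.79 to 11.8 TPM in the gap fractions, with no overlap (0.86 ± 0.22, SE; limma adjusted p = 0.117). ATF3, a factor of the stress response that also stands in the unfolded protein response list, showed 0.78 ± 0.23 (SE; limma adjusted p = 0.146). The 21 unfolded protein response genes tested had a median of -0.04 and the 15 heat shock chaperones -0.13.

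Respiratory genes were read by the genome that encodes them. Of 63 nuclear-encoded genes tested, 1 was higher and 6 lower at an unadjusted p below 0.05, near or under the shares over all genes (4.32% and 11.8%), with a median of -0.06 that was 0.01 with median-ratio or quantile scaling. CYC1, cytochrome c1 of complex III, had 606 and 596 TPM in S2 and S3 of replicate 2 and 194 and 211 TPM in S2 and S3 of replicate 3. CYC1 stood at 851 and 853 TPM in G1 and G2 of replicate 2 and 266 and 275 TPM in G1 and G2 of replicate 3. It was lower in mid S within each replicate (-0.46 ± 0.10, SE; limma adjusted p = 0.0819), and replicate 2 held several times the level of replicate 3 in every fraction. All 13 mitochondrially encoded mRNAs had positive differences (33.9% of all genes did), with 0 at an unadjusted p below 0.05 and 0 called in limma. Their median was 0.33, with 0.13 in replicate 2 and 0.53 in replicate 3. It was 0.02 against G1, 0.62 against G2 and -0.08 against S1 and S4. G2 of replicate 3 had the lowest mitochondrial share of the 8 libraries, 4.28%, against 24.4% in G2 of replicate 2. The 24 splicing factors of the SR and hnRNP families had a median of -0.11, and the 12 genes of histone mRNA processing and histone chaperones also -0.11, with CHAF1B, a subunit of the CAF-1 chaperone, at -0.53 ± 0.15 (SE; limma adjusted p = 0.144).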
